A study of Danio rerio with 4 samples.

Results

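The genes described here are those that the pathway annotation of the deposited table places in the cell cycle or in DNA replication. A feature was taken when its pathway description held "Cell cycle" or "DNA replication" as a whole entry, and proteasome subunit genes (symbols starting with psm) were to be left out, of which there were 0. The rule used annotation and no measured value, but it was set with earlier results of these data known. It gave 176 of the 19924 features of the table, of which 159 were Ensembl genes and 17 were transcript models assembled by the authors. The Cell cycle entry named 145 of them and the DNA replication entry 38, with 7 named by both. No low-value filter removed a member, but features with low counts have no row in the table used here, and the lowest of the members' highest counts over the libraries was 39.

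The study asked what loss of the 2 carboxypeptidase genes cpa1 and cpa5 does to zebrafish larvae. Poly(A) RNA was sequenced in 4 libraries, sibling 3, sibling 4, knockout 3 and knockout 4, from larvae of 3 days post fertilization. All came from 1 pair of parents heterozygous for cpa1 and cpa5 mutations; no further treatment is given, heads were cut off for genotyping, and the remaining tail tissue gave the RNA. The 2 knockout libraries are labelled cpa1 and cpa5 double knockout. The 2 control libraries are titled siblings and carry the genotype label WT, and since a sibling of such a cross can be heterozygous at either gene, they are called siblings here. Neither the fish per library nor the meaning of the numbers 3 and 4 is stated in the labels, so all p-values rest on the spread between libraries, which may be technical. In the main test between genotypes, that spread includes the difference between the numbers. In bulk tissue such as this, fewer cells of a type and less RNA per cell cannot be told apart.

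A dividing cell first loads the origin recognition complex (ORC), Cdc6, Cdt1 and the MCM helicase onto its chromosomes, which licenses replication origins in G1. In S phase the helicase opens the DNA, polymerases copy it, and the sliding clamp PCNA holds them on the template while flap endonuclease and DNA ligase I join the lagging strand fragments. Cyclins with their kinases drive each step, inhibitors such as p21 and p27 hold the kinases back, and the spindle checkpoint delays the anaphase-promoting complex (APC) until cohesin can be cut. In a fish larva of this age, proliferation continues in growing tissues beside muscle, skin and neurons that have left the cycle.

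Libraries held 25623442 reads counted to features in sibling 3, 32248878 in sibling 4, 24769258 in knockout 3 and 35343524 in knockout 4, and the members took between 0.528% and 0.599% of them. The targeted gene cpa5 had 2079, 397, 19 and 15 counts in sibling 3, sibling 4, knockout 3 and knockout 4, so the knockout libraries were lower than both siblings, although the siblings also differed; cpa1 was not analysed here. The libraries separated by replicate number more than by genotype: with 1 term in the fit, 3665 features were called between numbers and 0 between genotypes, by the edgeR test described with the comparisons. Heart muscle markers summed to 18.9 and 10.5 CPM (counts scaled to library size) in sibling 3 and knockout 3 against 76.9 and 78.4 CPM in sibling 4 and knockout 4. Skeletal muscle markers summed to 78669 CPM or more in every library, and 5 of 21 eye and forebrain markers had a row, with sums between 10.4 and 14.1 CPM.

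Among the members, levels per length spanned wide ranges. These are FPKM values, fragments scaled by the authors to feature length and library size, given as mean ± SD over all 4 libraries. The clamp gene pcna stood at 99.9 ± 30.3 FPKM, above each subunit of the clamp loader, of which rfc4 was highest at 15.4 ± 1.21 FPKM. The 14-3-3 adaptor genes, which bind phosphorylated cell cycle proteins among many others, were the most abundant family, led by ywhaz at 156 ± 28.7 FPKM and ywhabl at 146 ± 14.4 FPKM, whose ranges overlapped.

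Of the 9 cyclin genes, the G1 cyclins ccnd2a and ccnd1 led with 21.0 ± 3.95 and 16.3 ± 2.69 FPKM. Their ranges over the libraries overlapped, and both lay above that of the mitotic cyclin ccnb1, at 11.1 ± 1.66 FPKM. The G1 to S cyclin ccne1 was lowest at 1.03 ± 0.302 FPKM, with a range that overlapped that of ccnb2, at 1.69 ± 0.294 FPKM. Among 5 cyclin-dependent kinases, cdk4, the partner of the D cyclins, had 12.4 ± 2.46 FPKM and the mitotic kinase cdk1 9.81 ± 0.495 FPKM, with overlapping ranges, while cdk6 was far lower at 0.404 ± 0.0681 FPKM. The p27 gene cdkn1bb was the highest of 5 kinase inhibitors with 15.9 ± 1.45 FPKM, and its range overlapped that of the p21 gene cdkn1a, at 10.5 ± 5.17 FPKM.

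The 6 genes of the MCM helicase, whose proteins form 1 ring, lay between 10.9 ± 2.90 FPKM for mcm2 and 25.2 ± 3.58 FPKM for mcm7, and each overlapped its neighbour in this order. The ORC genes were lower, from 5.54 ± 2.04 FPKM for orc4 down to 0.422 ± 0.518 FPKM for orc1. In cohesin, the kleisin gene rad21a had 56.3 ± 6.10 FPKM against 3.79 ± 1.46 FPKM for its paralog rad21b, and smc1al had 23.4 ± 1.73 FPKM against 0.815 ± 0.211 FPKM for smc1a. In both pairs the ranges of the paralogs stood apart.

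**Figure D1:**
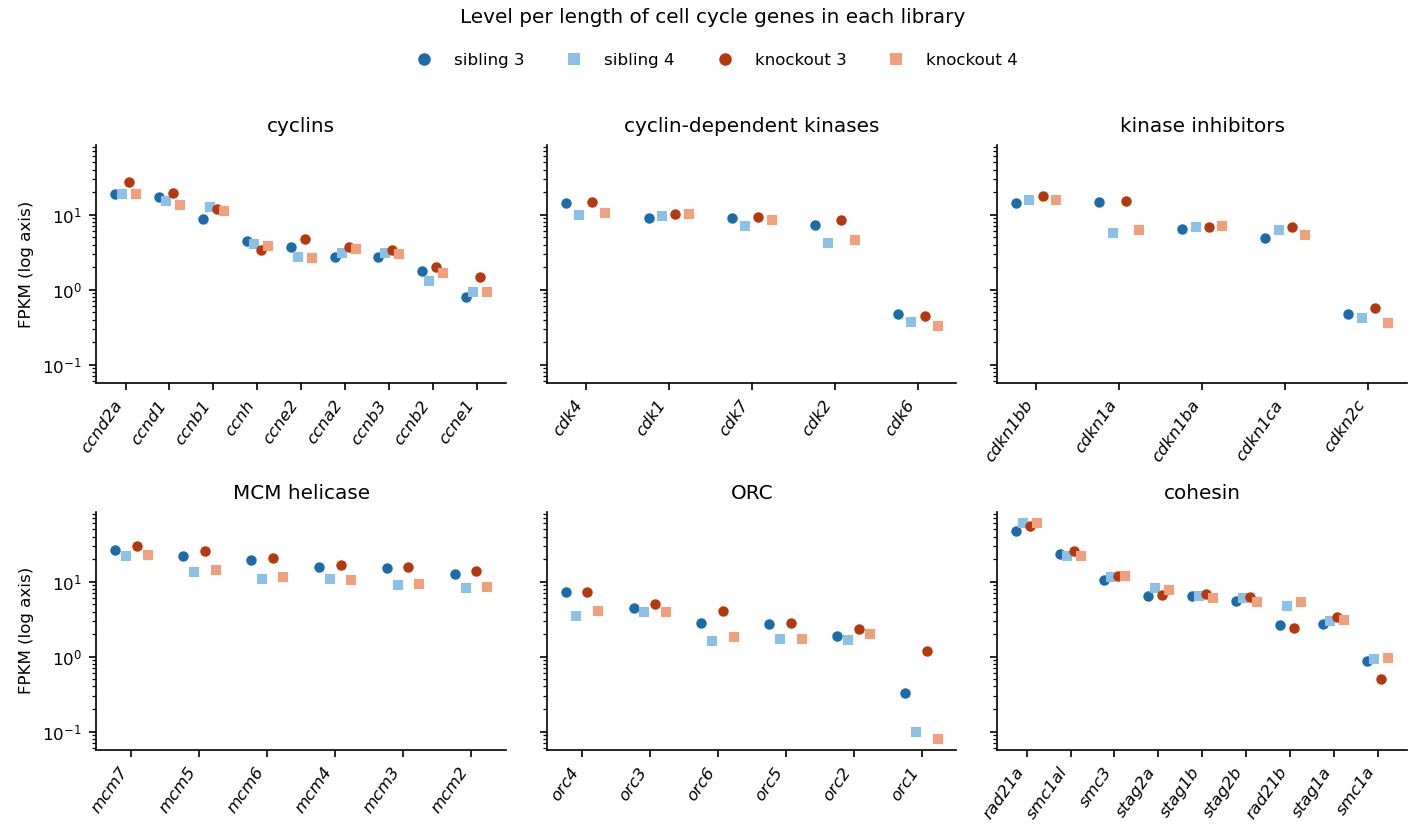
FPKM on a log axis for cyclins, cyclin-dependent kinases, kinase inhibitors, MCM helicase, ORC and cohesin genes; each point is 1 library, coloured by genotype and shaped by replicate number. The D cyclins, rad21a and cdkn1bb led their families, the MCM genes overlapped their neighbours, and the replicate 4 squares of mcm5 and mcm6 lay below their circles.

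In the comparison of knockouts with siblings, which is the study's own question, no cell cycle or replication gene passed the test. By edgeR's quasi-likelihood test with Benjamini-Hochberg adjustment, 0 of 176 members were called at an adjusted p below 0.05, against 0% of all 19924 features. At an unadjusted p below 0.05 there were also 0 members, against 0.502% of all features. DESeq2 called 0 members against 0.0954% of all features, with 0 members against 0.567% at an unadjusted p below 0.05. For limma-voom 0 members and 0 features were called, with 0 members against 0.512% unadjusted. The authors' deposited table likewise gives 0 members an unadjusted p below 0.05, its smallest p for a member being 0.111.

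The fitted genotype differences were small. The median log2 fold change (knockout over sibling) of the members was 0.02, beside -0.01 over all features. It lay within 0.25 of 0 for 145 members, 82.4% of them, compared with 77% of all features, and within 0.5 for 171 members. The median standard error of a member was 0.24 in this fit, which had no term for replicate number. The difference between the numbers therefore counted as spread, and a log2 difference of that size in a single gene was not detectable in it. Differences well above it could go undetected too, since espl1, at -0.60, was not called. Both knockouts lay above both siblings for 12 members, 6.82%, while this held for 8.72% of all features. They lay below both siblings for 11 members, 6.25%, against 9.01% of all features.

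Replication genes showed the genotypes side by side. For pcna, the libraries gave 205 CPM in sibling 3, 130 in sibling 4, 222 in knockout 3 and 145 in knockout 4. The replicate 3 libraries were the high ones in both genotypes, and the genotypes overlapped. Its fitted difference was 0.13 ± 0.34 (log2, SE). For the 6 MCM helicase genes together, summed levels were 394, 264, 405 and 274 CPM in sibling 3, sibling 4, knockout 3 and knockout 4, with a median log2 fold change of 0.04. Knockout and sibling of the same number lay close together, and the genotypes overlapped again. Across the 16 genes of origin licensing and the helicase, 14 had a positive and 2 a negative fitted difference, with a median of 0.05 and 0 calls; the 28 fork genes split into 16 positive and 12 negative, with a median of 0.00 and 0 calls.

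Cyclins and their switches also passed no test between genotypes. The A-type cyclin ccna2, which acts in S phase and G2, was measured at 18.1 and 21.5 CPM in siblings 3 and 4 and at 22.7 and 23.9 CPM in knockouts 3 and 4. Both knockouts lay above both siblings, by a fitted 0.24 ± 0.18 (log2, SE), with an unadjusted p of 0.254 in edgeR's quasi-likelihood test. For ccne1, the cyclin of the G1 to S step, the siblings gave 2.30 and 2.67 CPM and the knockouts 3.89 and 2.75 CPM. Here knockout 3 stood above the other libraries, which lay close to each other (0.42 ± 0.30, unadjusted p = 0.225 by the same test). The median over the 16 G1 and S genes was 0.07, and that over the 11 G2 and M genes was also 0.07. Within number 3 the G1 and S median was 0.136 and the G2 and M median 0.140. Within number 4 they were -0.002 and -0.042.

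No gene of the DNA damage response was called between genotypes. In the DNA damage checkpoint list, 9 of 13 members had a negative and 4 a positive fitted difference, with a median of -0.12, which was -0.18 within number 3 and -0.01 within number 4. The stress-induced gene gadd45ba, the highest of this list per length, was at 57.7, 49.0, 32.7 and 48.7 CPM in sibling 3, sibling 4, knockout 3 and knockout 4. Knockout 3 alone was low, while knockout 4 lay just under sibling 4 (-0.39 ± 0.26). The checkpoint kinase gene chek2 had 25, 24, 34 and 40 counts, higher in both knockouts than in both siblings, at a fitted 0.51 ± 0.38 with an unadjusted p of 0.246 in edgeR's quasi-likelihood test.

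The smallest genotype p of any member belonged to espl1, the gene of separase, which cuts cohesin at anaphase. Siblings 3 and 4 gave 4.80 and 6.09 CPM and knockouts 3 and 4 gave 3.35 and 3.83 CPM. Both knockouts lay below both siblings, at -0.60 ± 0.24 (log2, SE), with an unadjusted p of 0.0641 and an adjusted p of 1 in edgeR's quasi-likelihood test. The table holds 2 further assembled models matched to separin, the other name of separase, MSTRG.38608.1 and MSTRG.38874.1, and reads of 1 gene can be divided among such features. Summed over the 3 features, a sum added after the values were seen, the levels were 10.8, 11.4, 8.29 and 9.88 CPM in sibling 3, sibling 4, knockout 3 and knockout 4. In that sum the knockouts lay below the siblings, by -0.28 on the log2 scale, but the sum contains espl1 itself. For the sum of the 2 models without espl1, the genotypes overlapped. Taken by itself, MSTRG.38874.1 had a fitted -0.53 without a call, and -0.66 to -0.41 with 1 library left out.

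The member with the most negative genotype difference was an assembled model, and 1 library set it. MSTRG.36556.1, matched to the transcription factor E2F4, had 233 counts in sibling 3, 248 in sibling 4, 0 in knockout 3 and 249 in knockout 4. Only knockout 3 was without reads, and knockout 4 stood beside the siblings. Together with the gene e2f4 itself, a sum made after the values were seen, the levels were 16.3, 15.3, 8.56 and 12.2 CPM. In that sum both knockouts were below both siblings, with the lower of them knockout 3. The summed counts were 418, 483, 222 and 421, and all 222 in knockout 3 came from the gene e2f4, since the model had 0 there. For the gene e2f4 without the model, knockout 3 was not the low library and the genotypes overlapped.

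**Figure D2:**
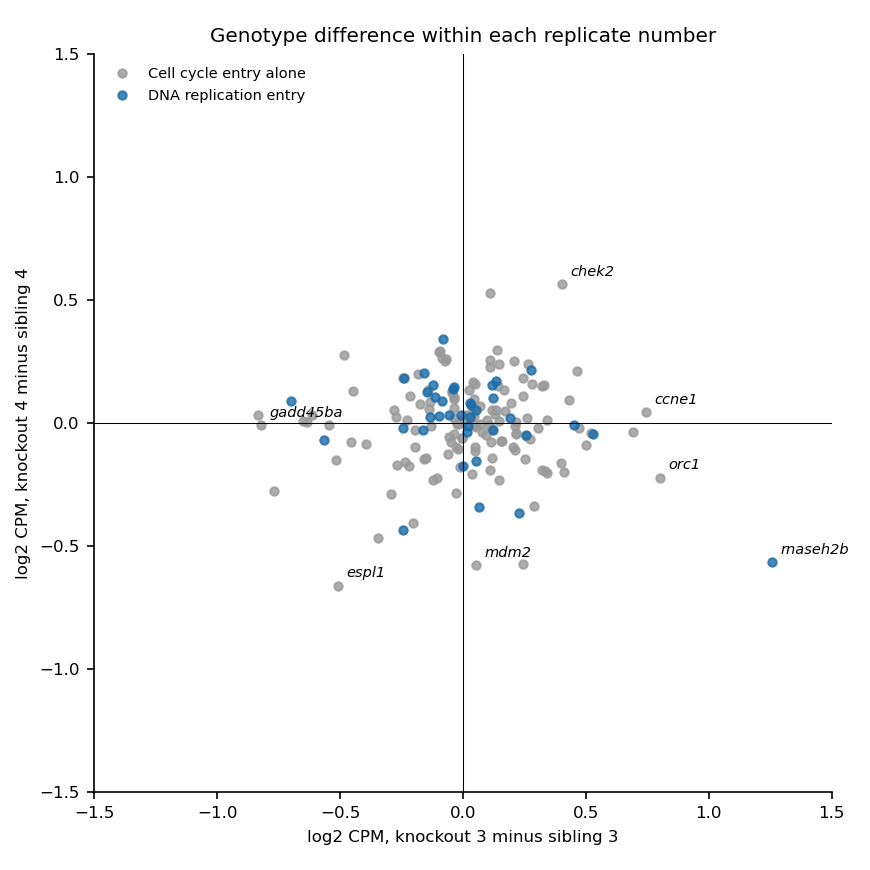
Log2 CPM difference of knockout minus sibling within number 3 (horizontal) and within number 4 (vertical), 1 point a member, coloured by pathway entry, with 1 member not shown. Both differences were under 0.5 in size for 152 of 176 members; MSTRG.36556.1, at -7.07 within number 3, lies off the plot.

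Within each replicate number the members again centred near 0, with a median log2 difference of knockout minus sibling of 0.03 within number 3 and 0.00 within number 4. A knockout higher within both numbers was seen for 47 members, 26.7%, against 24.5% of all features, and a knockout lower within both for 37, 21%, against 26.4%. Some marker lists of other cell types leaned to 1 side between the genotypes by sign, with 0 markers called by edgeR. Over all features, 9535 of 19924 were higher in knockouts by sign. Other lists were mixed, with 3 of 6 heart muscle, 7 of 12 neural progenitor and 2 of 7 epidermis markers higher. Summed hepatocyte markers were 6721, 9845, 3990 and 6961 CPM in sibling 3, sibling 4, knockout 3 and knockout 4, with 0 of 11 markers higher in knockouts by sign, and summed exocrine pancreas markers were 991, 110, 327 and 85.0 CPM, with 0 of 8 higher. Summed erythroid markers were 710, 645, 406 and 637 CPM, so knockout 3 was the low library. Intestine markers were higher in knockouts in 0 of 6 cases, and neuron markers in 9 of 9, with a median of 0.15. Their part in the members' values was not tested.

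Between the libraries numbered 4 and those numbered 3, a comparison of libraries and not of a condition, part of the cell cycle genes did differ, and 10 of the 17 lower calls were in the DNA replication entry. The fit carried genotype as a term. The edgeR quasi-likelihood test with Benjamini-Hochberg adjustment called 22 of 176 members, 12.5%, against 15.1% of all features, so the members as a whole were called no more often than the table at large. Of these, 17 were lower in replicate 4, 9.66% of members against 8.16% of all features, and 5 were higher, 2.84% against 6.99%. DESeq2 called 13 members, 7.39% against 10.6% of all features, and all 13 were among the 22, while limma-voom called 24, 13.6% against 16.3%. In the fit without the genotype term the count was 29 with all 4 libraries (18.4% of all features called). With a library left out as well, the number of calls changed widely, for the members and for all features alike. The direction of all 22 was the same in each of those fits. In them the log2 fold change was -1.19 to -1.10 for lig1, -1.31 to -1.18 for cdkn1a and 0.86 to 0.97 for zbtb17. The 9 members that DESeq2 did not call were mcm4, orc4, orc6, fen1, pole, pola1, cdk2, tgfb3 and MSTRG.33131.2.

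Both replicate 4 libraries lay below both replicate 3 libraries for 81 members, 46%, against 32.9% of all features, and above them for 46 members, 26.1%, against 32.8%. Numbers that do not overlap were thus common in the table and say little about a single gene.

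Lower calls occurred under both pathway entries. Of the 38 members of the DNA replication entry, 33 were lower in replicate 4 by sign, 86.8% against 49.4% of all features. Of the 38, 10 were called lower, 26.3% against 8.16% of all features, and 0 higher, against 6.99%. Their median log2 fold change (replicate 4 over 3) was -0.37, beside 0.01 over all features. Their summed levels were 1057 CPM in sibling 3 and 1092 CPM in knockout 3, and 755 CPM in sibling 4 and 787 CPM in knockout 4, so each replicate 4 library was below both replicate 3 libraries. Of the other 138 members, named by Cell cycle alone, 5 were called higher, 3.62% against 6.99% of all features. Another 7 were called lower, 5.07% against 8.16%, and the median of the 138 was 0.01.

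**Figure D3:**
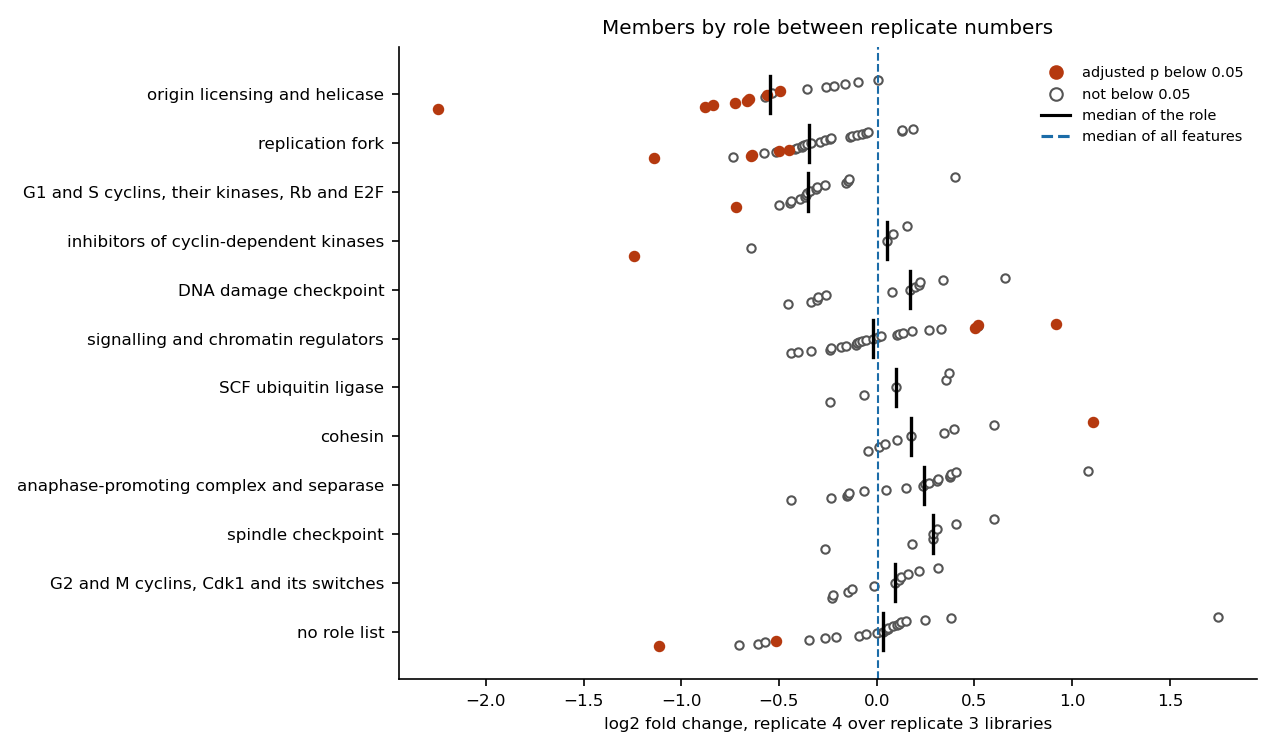
Log2 fold change of replicate 4 over replicate 3 libraries for each member but 1, grouped by role; filled points had an adjusted p below 0.05, black bars are the medians of a role and the dashed line is the median of all features. Origin licensing, with a median of -0.55, the fork genes, with -0.35, and the G1 and S genes, with -0.35, lay to the left, and the spindle checkpoint, with 0.29, to the right.

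Origin licensing and the helicase held the most calls. Of 16 members, 8 were called lower, 50% against 8.16% of all features, and 0 higher, against 6.99%. By sign, 15 of 16 were lower, 93.8% against 49.4% of all features. All 6 helicase genes mcm2 to mcm7 were lower in replicate 4, 5 of them past the test. The gene mcm6 gave 75.8 CPM in sibling 3 and 77.4 in knockout 3 against 45.02 in sibling 4 and 47.7 in knockout 4. The replicate 3 libraries were high and close together, the replicate 4 libraries low, and the numbers did not overlap. It fell by 0.72 on the log2 scale, with an SE of 0.10 and an adjusted p of 0.0163 in edgeR's quasi-likelihood test. The genes mcm2, mcm3, mcm4 and mcm5 had log2 fold changes of -0.56, -0.66, -0.49 and -0.67. For mcm7 the libraries lay nearer to each other, at 44.3, 38.1, 45.1 and 38.8 CPM in sibling 3, sibling 4, knockout 3 and knockout 4, and its -0.22 ± 0.10 did not pass (adjusted p = 0.188, same test).

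All 6 ORC genes, whose proteins mark origins, were also lower by sign, and orc1, orc4 and orc6 passed. The gene orc4 was at 12.5 and 11.8 CPM in sibling 3 and knockout 3 and at 6.16 and 7.42 CPM in sibling 4 and knockout 4. Its replicate 4 libraries lay below both replicate 3 libraries (-0.84 ± 0.15, adjusted p = 0.0319 in the edgeR test). The gene orc1 had the lowest level of the family and the largest difference of all members, at 2.81, 0.857, 4.94 and 0.724 CPM in sibling 3, sibling 4, knockout 3 and knockout 4. Numbers did not overlap, but the replicate 3 libraries differed from each other (-2.25 ± 0.35, adjusted p = 0.022). The deposited FPKM of orc1 did not follow its counts, with an FPKM per read that differed 2.04 times between libraries, and the model MSTRG.38726.1 was also matched to Orc1. Summed over both features, after the values were seen, the levels were 7.21, 3.87, 9.06 and 4.43 CPM, a log2 difference of -0.97. The loading factors cdc6 and cdt1 did not pass, at -0.26 ± 0.15 and -0.09 ± 0.19. An assembled model was also matched to Cdc6, and the sum of both features, made after the values were seen, had a log2 difference of -0.33.

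At the replication fork, 25 of 28 members were lower by sign, 89.3% against 49.4% of all features. Of the 28, 5 were called lower, 17.9% against 8.16% of all features, and 0 higher, against 6.99%. DNA ligase I, encoded by lig1, which seals nicks on the lagging strand, had 24.3 and 22.8 CPM in sibling 3 and knockout 3 and 10.3 and 11.0 CPM in sibling 4 and knockout 4. The replicate 4 libraries were both under both replicate 3 libraries, and genotypes within a number were alike in level. It fell by 1.14 (log2), with an SE of 0.11 and an adjusted p of 0.00926 in the edgeR test. The clamp gene pcna, with the library values given above, had -0.64 ± 0.09 and an adjusted p of 0.0185. The other fork genes called lower by edgeR were fen1, the flap endonuclease gene, at -0.50, and 2 polymerase genes. These were pole, the catalytic subunit gene of polymerase epsilon, at -0.64, and pola1, that of polymerase alpha, at -0.45. DESeq2 did not call fen1, pole or pola1. The single-strand binding gene rpa1, at 65.4, 48.9, 67.9 and 50.8 CPM, missed the threshold with an adjusted p of 0.0502 in the edgeR test. Its numbers did not overlap, with replicate 4 lower, as for 32.9% of all features.

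**Figure D4:**
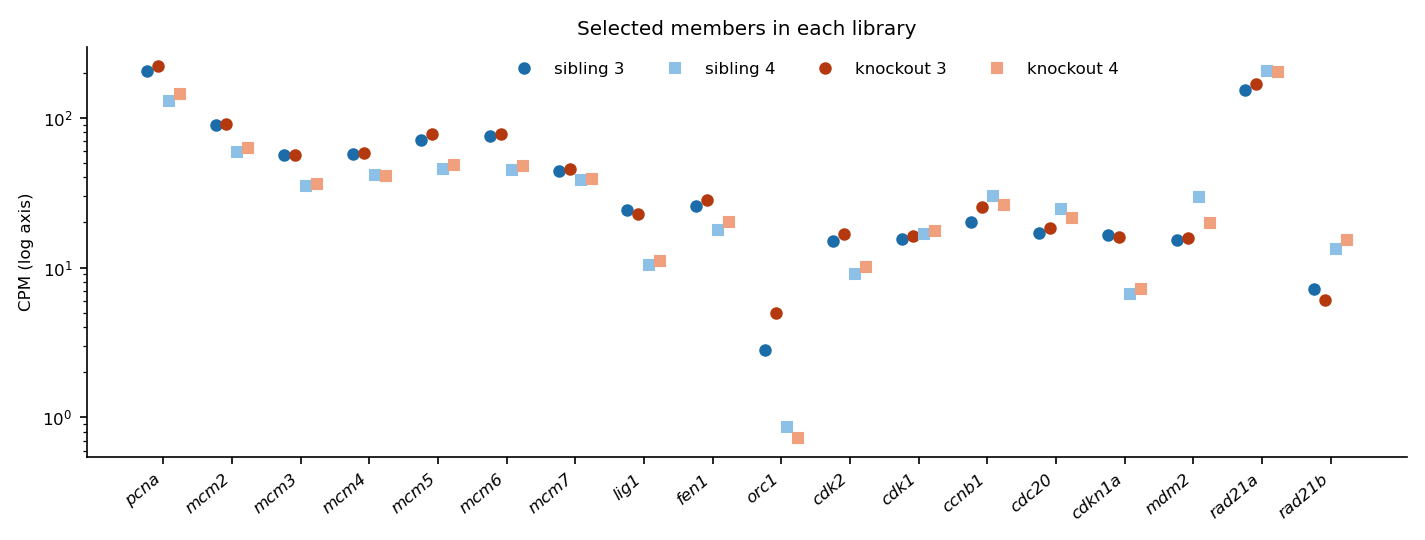
CPM on a log axis for 18 members in each library; circles are replicate 3, squares replicate 4, blue siblings and red knockouts. The squares lay below the circles for pcna, mcm2 to mcm7, lig1, fen1, orc1, cdk2 and cdkn1a. They lay above the circles for cdk1, ccnb1, cdc20, mdm2, rad21a and rad21b, by little for cdk1 and ccnb1.

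The G1 and S group was lower by sign in 15 of 16 members, 93.8% against 49.4% of all features. Only 1 member passed the test, 6.25% against 8.16% of all features called lower. This was cdk2, the kinase that cyclin E and cyclin A activate for S phase, with 15.0 and 16.6 CPM in sibling 3 and knockout 3 and 9.11 and 10.1 CPM in sibling 4 and knockout 4. The numbers did not overlap (-0.72 ± 0.12, adjusted p = 0.0255 in the edgeR test). The retinoblastoma gene rb1, which restrains entry into S phase, was at 23.8, 18.4, 26.3 and 18.5 CPM, lower in both replicate 4 libraries, with an adjusted p of 0.0513. The cyclin E gene ccne2 had -0.50 ± 0.14 (adjusted p = 0.0804) and ccnd1 had -0.30 ± 0.10 (adjusted p = 0.104). A gene annotated as E2F2, si:ch211-160f23.5, a transcription factor of S phase genes outside the role lists, was at 7.56 and 7.21 CPM in sibling 3 and knockout 3 and at 3.11 and 3.74 CPM in sibling 4 and knockout 4. It fell by 1.11 (log2, SE 0.20, adjusted p = 0.0294), with both replicate 4 libraries low.

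Of the 5 kinase inhibitors, 1 was called lower, 20% against 8.16% of all features. The p21 gene cdkn1a, whose product blocks cyclin-dependent kinases, was at 16.6 CPM in sibling 3, 16.1 in knockout 3, 6.63 in sibling 4 and 7.22 in knockout 4. Replicate 3 was high in both genotypes, with no overlap, and the log2 fold change was -1.24 ± 0.13 with an adjusted p of 0.0102 in the edgeR test. The p27 genes cdkn1ba and cdkn1bb, at 0.16 ± 0.10 and 0.05 ± 0.11, and cdkn1ca, the p57 gene, at 0.08 ± 0.18, did not pass. The median of the inhibitors, 0.05, turned to -0.01 when libraries were scaled by their totals alone.

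In the DNA damage checkpoint group, 8 of 13 members were higher in replicate 4 by sign, with a median of 0.17. The gene mdm2, which encodes a ubiquitin ligase of the damage response, was at 15.2 and 15.7 CPM in sibling 3 and knockout 3 and at 29.7 and 19.9 CPM in sibling 4 and knockout 4. It was higher in replicate 4 without overlap but did not pass (0.66 ± 0.17, adjusted p = 0.068). A further 12 damage response genes are not held by the pathway entries. Of these, ccng1 (0.90 ± 0.11) and sesn3 (0.54 ± 0.10) were called higher, 16.7% against 6.99% of all features. The gene sat1a.2 (-0.56 ± 0.11) was called lower, 8.33% against 8.16%. The median of the 12 was 0.00, which was -0.07 with totals alone as the scale.

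No member of the spindle checkpoint and APC groups was called, against 15.1% of all features. In the spindle checkpoint group, 6 of 7 members were higher in replicate 4 by sign and 0 were called by edgeR, with 3 at an unadjusted p below 0.05, as were 34.5% of all features. The checkpoint gene mad2l1 was at 11.7, 15.6, 11.5 and 15.1 CPM in sibling 3, sibling 4, knockout 3 and knockout 4, higher in both replicate 4 libraries (0.41 ± 0.12, adjusted p = 0.0796). For bub1bb, another checkpoint gene, the values were 6.36, 9.49, 8.41 and 8.46 CPM, and the difference lay mainly between the siblings (0.29 ± 0.19). The APC and separase group had 12 of 18 members higher by sign and 0 calls, with a median of 0.24. Its activator gene cdc20 was at 17.0, 24.5, 18.4 and 21.4 CPM, higher in replicate 4 in both genotypes and without a call (0.38 ± 0.12, adjusted p = 0.0983).

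The G2 and M group was close to level, with 6 of 11 members higher by sign. By edgeR it had 0 calls, against 15.1% of all features, and 0 at an unadjusted p below 0.05, against 34.5%. Its median was 0.09, which was 0.03 with totals alone as the scale. Its kinase gene cdk1 was at 15.4, 16.8, 16.2 and 17.6 CPM in sibling 3, sibling 4, knockout 3 and knockout 4. All 4 values were close together (0.12 ± 0.11, adjusted p = 0.452). The cyclin gene ccnb1, at 20.1, 30.1, 25.3 and 26.3 CPM, had its gap between the siblings (0.32 ± 0.15, adjusted p = 0.216), and the mitotic kinase gene plk1, at 10.5, 11.8, 9.14 and 11.0 CPM, had 0.22 ± 0.13. An assembled model was also matched to Plk1. Summed over the 2 features, after the values were seen, the levels were 17.9, 20.4, 19.1 and 20.2 CPM, a log2 difference of 0.14.

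**Figure D5:**
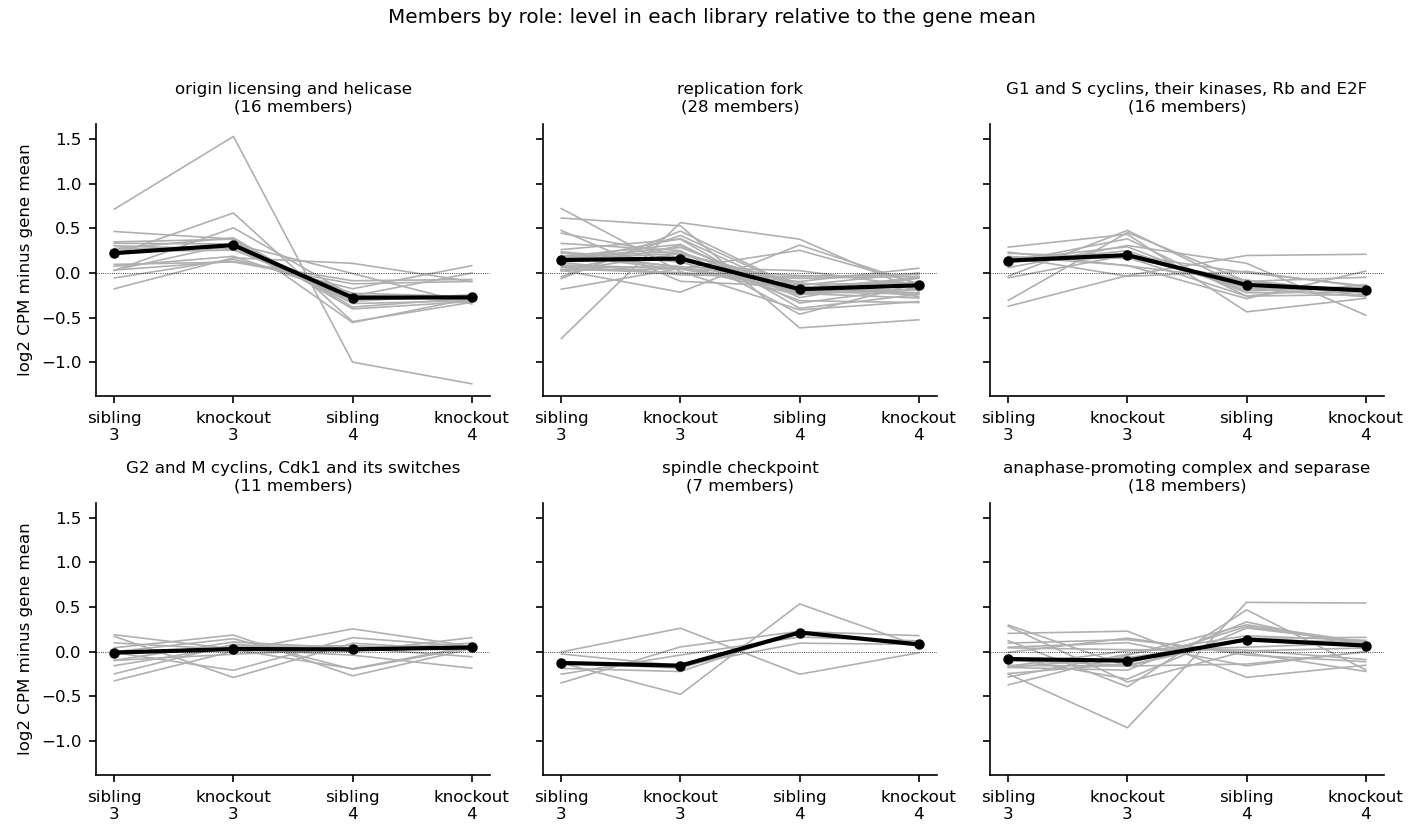
Log2 CPM of each member minus its mean over the 4 libraries, by role; grey lines are members and the black line is the median of the role. The medians of licensing, fork and G1 and S genes dropped from the replicate 3 to the replicate 4 libraries, that of G2 and M genes stayed near 0, and those of the spindle checkpoint and APC genes lay higher in replicate 4.

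In cohesin, 8 of 9 members were higher in replicate 4 by sign and 1 was called higher, 11.1% against 6.99% of all features. The paralog rad21b was at 7.17 and 6.05 CPM in sibling 3 and knockout 3 and at 13.3 and 15.2 CPM in sibling 4 and knockout 4, higher in replicate 4 in both genotypes without overlap (1.11 ± 0.16, adjusted p = 0.0195 in the edgeR test). Its more abundant paralog rad21a, at 154, 205, 167 and 201 CPM, was also higher in both but did not pass (0.34 ± 0.10, adjusted p = 0.0746). The paralogs can share reads, and the treatment of reads with more than 1 match was not given in the sources used here. An assembled model matched to cohesin subunit SA-2, MSTRG.33131.2, went the other way, at 22.1, 16.7, 24.6 and 15.9 CPM, with -0.52 ± 0.11 and an adjusted p of 0.0437. The SA-2 gene stag2a was at 0.40 ± 0.10 (adjusted p = 0.0581), so features matched to the same protein had opposite signs.

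Among 25 signalling and chromatin regulators, 3 were called higher, 12% against 6.99% of all features, and 0 lower, against 8.16%. The gene zbtb17, which encodes the Myc partner Miz1, was at 16.3 and 17.6 CPM in sibling 3 and knockout 3 and at 32.9 and 31.1 CPM in sibling 4 and knockout 4. Genotypes within a number were alike in level and the numbers stood apart (0.92 ± 0.11, adjusted p = 0.0122 in the edgeR test). The growth factor gene tgfb3 was at 29.4, 41.8, 29.5 and 41.8 CPM and the 14-3-3 zeta gene ywhaz at 247, 397, 298 and 380 CPM in sibling 3, sibling 4, knockout 3 and knockout 4. Both were higher in each replicate 4 library, with log2 fold changes of 0.50 and 0.52. In the SCF ubiquitin ligase group, which marks G1 and S proteins for degradation, 0 of 5 members were called by edgeR, against 15.1% of all features. Of the 5, 2 (40%) were at an unadjusted p below 0.05, against 34.5% of all features. These were rbx1 at 0.36 ± 0.10 and cul1b at 0.37 ± 0.10.

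Lists of further genes of these processes, outside the pathway entries, were counted in the same way. Of 27 measured genes of the replisome and nucleotide supply, 22 were lower in replicate 4 by sign and 3 were called lower, 11.1%, against 8.16% of all features, with 0 higher and a median of -0.25. These were dhfr, which makes the folate cofactor for thymidylate, at 16.9, 6.69, 14.0 and 6.90 CPM in sibling 3, sibling 4, knockout 3 and knockout 4, and the maintenance methylation genes dnmt1 and uhrf1, at -0.59 ± 0.10 and -0.56 ± 0.10. For dhfr both replicate 4 libraries were low (-1.18 ± 0.14). Of 32 mitosis genes, 26 were higher by sign and 2 were called higher, 6.25% against 6.99% of all features, namely the spindle genes dlgap5 at 1.32 ± 0.15 and cenpe at 0.70 ± 0.11, with a median of 0.22. The list's median log2 difference of replicate 4 minus 3 was 0.41 between the siblings and 0.01 between the knockouts, and its summed levels were 716, 932, 840 and 865 CPM in sibling 3, sibling 4, knockout 3 and knockout 4. Between genotypes 0 genes of either list were called by edgeR, 0 had an unadjusted p below 0.05, and both medians were 0.04. For the mitosis list the median of knockout minus sibling was 0.21 within number 3 and -0.11 within number 4.

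Other cell types differed between the numbers at the same time. Epidermis markers summed to 18084 and 14859 CPM in sibling 3 and knockout 3 against 27884 and 24773 CPM in sibling 4 and knockout 4, and 6 of 7 were called higher. Heart muscle markers, with the sums given above, were called higher in 5 of 6 cases, and hepatocyte markers in 6 of 11. Exocrine pancreas markers were lower in 8 of 8 cases, and blood progenitor markers summed to 18.8, 9.84, 15.9 and 11.6 CPM in sibling 3, sibling 4, knockout 3 and knockout 4, with 2 of 3 called lower. Of 10 erythroid markers, 4 were called lower, while by sign 6 were lower and 4 higher. Over all features, 6.99% were called higher and 8.16% lower. Of 12 neural progenitor markers, 0 were called, although 11 were higher in replicate 4 by sign and 4 had an unadjusted p below 0.05. Their median was 0.27, with sums between 185 and 212 CPM. Whether these shifts play a part in the members' differences was not tested.

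The 5 features outside the pathway entries whose log2 CPM, centred per feature, was nearest in Euclidean distance to the mean profile of mcm2 to mcm7 over the 4 libraries were clk4b, lyar, tomm20a, hat1 and ppig. The row named tomm20a carries the protein description of another gene, so which gene it measures is uncertain. Their distances were between 0.0107 for clk4b and 0.0316 for ppig. The histone acetyltransferase gene hat1 was at 39.7 and 41.0 CPM in sibling 3 and knockout 3 and at 26.9 and 28.5 CPM in sibling 4 and knockout 4. With 4 libraries such a profile is fixed by few values, and the likeness is a description.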

How the data were processed

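The authors deposited 1 table of all 4 libraries, with read counts and FPKM values per feature, and their own log2 fold change, p-value and adjusted p-value of knockout over sibling, per the file headers. Per the submitters' processing notes, HISAT2 2.2.1 and DESeq2 1.26.0 were used with GRCz11; for the counter, assembler, annotation release and strand setting, no source used here names one. Per the labels, each library was made from 500 ng of RNA.

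Counts were tested as deposited over all 19924 features with edgeR 4.0.16 (quasi-likelihood, TMM, filterByExpr, which removed 0 features) in R 4.3.3, two-sided, with Benjamini-Hochberg adjustment over all features and a threshold of 0.05. The genotype fit had no covariate, and the fit for replicate number had genotype as a term. With 4 libraries, the latter left few values from which to estimate its spread. CPM used the TMM-scaled library sizes, and differences within a number use log2 CPM with a prior count of 2. Biological coefficients of variation were 32.6% and 15.4%. DESeq2 1.42.0, limma-voom (limma 3.58.1), RLE size factors, library totals, other filters, summed models, a replicate block and each library left out were alternatives. The fits were also run on simulated counts, with a coefficient of variation of 15.4% in both comparisons. The genotype fit of the real data had 32.6%, so the simulation does not show what that fit could detect.

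The members and lists were chosen with earlier results of these data known, as was the comparison of replicate numbers. The genes named were 20 preset cell cycle genes, for each role list the most abundant by FPKM, and those with the smallest p for replicate number and for genotype, with like rules for the lists outside the entries; others, such as the remaining members called, were chosen after their values were seen. Ensembl IDs of 159 of 159 member genes matched a separate table of gene names. The values of 1 member are not reported here. Sequences and coordinates were not used here.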

Additional observations from a re-analysis of the deposited data

How the results depend on the processing

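Between genotypes 0 members were called by any tool, scaling or filter run or with any library left out. The members' median log2 fold change was 0.057 with library totals alone and between -0.060 and 0.074 with 1 library left out. The replicate numbers were not shown to pair the samples, since there are only 2 of them; same-numbered libraries deviated together (correlation 0.62 over all features and 0.45 over the members). With the replicate block, 0 members and 3 features were called, and 1 member, espl1, had an unadjusted p below 0.05, as had 878 features. Between replicate numbers, the 22 calls became 13 with DESeq2. Fits with a library left out had no genotype term; without that term the count was 29 with all 4 libraries and 40, 36, 6 and 5 without sibling 3, knockout 3, knockout 4 and sibling 4. Calls lower in replicate 4 became 9 with DESeq2, 27 with library totals alone and 29, 24, 4 and 3 in those fits. Calls higher became 8 with counts summed per symbol or locus, 8 without the genotype term and 11, 12, 2 and 2 in them. The share of all features called rose and fell with the members' count in the fits with a library left out. The members' median was -0.16 with library totals alone and -0.11 to -0.09 with 1 library left out. All 22 remained called under RLE size factors, library totals, the other filters, limma-voom, summed counts and no genotype term. Fewer stayed called with a library left out, while all 22 kept their direction. The sign of single genes was followed for 13 named genes in genotype and 37 in replicate number, not for all 176 members. With 1 library left out, signs turned among the 13 in cdkn2c (-0.17 to 0.85) and rbx1 (-0.024 to 0.35). Among the 37 they turned in ccna2 (-0.00077 to 0.33), cdkn1ca (-0.12 and -0.034, to 0.30) and espl1 (-0.095 to 0.58). The cause was not tested. Counts near 39 limit the precision for the lowest members.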
